A study of Mus musculus with 3 samples.

Results

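The clustered protocadherin genes encode cell-adhesion proteins of the cadherin superfamily that bind to copies of themselves on neighbouring cells. In the mouse they lie side by side on chromosome 18 in 3 clusters, named alpha, beta and gamma. All 57 protein-coding genes of a RefSeq table (build GRCm38.p6, also called mm10) on this chromosome whose symbols begin with Pcdha, Pcdhb, Pcdhga, Pcdhgb or Pcdhgc and end in a number were taken, Pcdhac1 and Pcdhac2 included, out of 21887 protein-coding genes. The alpha cluster held 14 of them, the beta cluster 22 and the gamma cluster 21. All cells were wild-type and came from 34 mouse otocysts, the epithelial vesicles that form the inner ear, microdissected at the embryonic stage E10.5, pooled, and dissociated. The pool was split into 3 CUT&Tag libraries, with an antibody against the chromatin remodeler CHD7, an antibody against the transcription factor SOX2, or no primary antibody. In CUT&Tag an antibody directs the transposase Tn5 to the DNA around a protein, and peaks are stretches where the resulting coverage is high. The library without primary antibody was not analysed here. With 1 library per antibody, made from a single pool, no value below has a replicate check and no test between libraries was possible. The lists hold peaks and not RNA, so the tissue could not be checked against the expression of its markers.

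Each alpha or gamma gene begins with a large variable exon that codes for the extracellular part of the protein and has a promoter of its own. That exon is spliced to constant exons that all genes of the cluster share, whereas beta genes have a single coding exon. In neurons most of these promoters are chosen at random, cell by cell, through DNA loops that CTCF and cohesin form with distant enhancers, and the resulting mixture of surface proteins lets a neuron tell its own branches from those of other cells. The C-type genes, Pcdhac1, Pcdhac2, Pcdhgc3, Pcdhgc4 and Pcdhgc5, differ in that they are expressed in most neurons without such a choice.

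The clusters as a whole carried about as many peaks as other stretches of the genome. From the first base of Pcdha1 to the last base of the gamma cluster (36930285 to 37841873) there were 13 CHD7 peaks and 52 SOX2 peaks, each counted once. Over 912 kb this is 14.3 CHD7 peaks per Mb, against 12.4 on chromosome 18 and 12.4 over all assembled chromosomes. For SOX2 it is 57.04 peaks per Mb, against 54.5 on chromosome 18 and 58.3 over all assembled chromosomes. Peaks covered 1.77% of the bases for CHD7 and 3.63% for SOX2, where all assembled chromosomes had 1.25% and 4.01%. Read depth is unknown, and the number of peaks sets the precision of these values.

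SOX2 peaks differed in density between stretches of the clusters, while CHD7 peaks were too few to compare. The alpha cluster held 3 CHD7 and 11 SOX2 peaks, the beta cluster 4 and 11, and the gamma cluster 3 and 15. The 140 kb between the beta and gamma clusters, which holds none of the 57 genes, had 3 CHD7 and 11 SOX2 peaks. The 76.1 kb between the alpha and beta clusters had no CHD7 peak and 4 SOX2 peaks. SOX2 peaks were densest in the gamma cluster, at 83.3 per Mb, and between beta and gamma, at 78.4 per Mb, and sparser in the alpha and beta clusters, at 42.5 and 42.9 per Mb. Above the median total signal of the list were 5 of the 15 gamma peaks and 2 of the 11 between beta and gamma. In the alpha and beta clusters 6 of 11 and 7 of 11 were, so the higher densities came from weaker peaks.

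**Figure D1:**
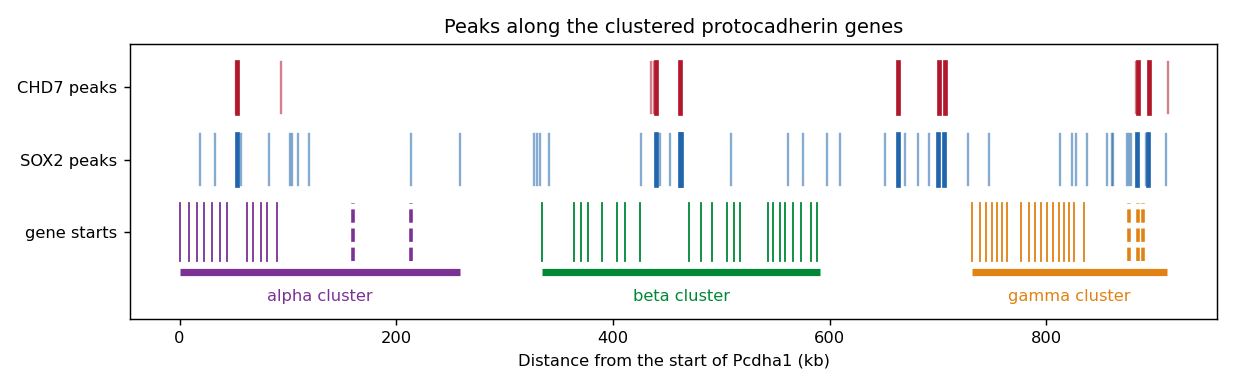
CHD7 peaks (top), SOX2 peaks (middle) and gene starts (bottom) along the 3 clusters, by distance from the start of Pcdha1 in kb; thick dark lines are peaks that overlap a peak of the other list, thin lines are other peaks, and dashed gene starts are C-type genes. The 13 CHD7 peaks inside the clusters sit in a few groups, while the 52 SOX2 peaks are more widely spread; a further CHD7 peak lies just past the gamma end.

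The gene starts carried few peaks. In the alpha and gamma clusters the upper borders of the genes lie within 1240 and 10 bases of each other and the lower borders differ, so the lower border was taken as the gene's own start, and likewise in the beta cluster. A CHD7 peak lay within 1 kb of the start of 1 of 57 members, or 1.75% (exact 95% Clopper-Pearson interval 0.0444% to 9.39%). Of 17492 protein-coding genes with a known strand 29.2% had a CHD7 peak there. A SOX2 peak lay within 1 kb of the start of 4 of 57 members, or 7.02% (1.95% to 17.0%), against 52.0% of those genes. Peaks of both lists were present at 1 member start, whereas 26.4% of those genes had both. The intervals cover counting error only, since neighbouring genes are not independent. The variable exons resemble each other in sequence, and the treatment of reads that match more than one of them is not stated in the sources used here, so its part in the low counts at starts and in the first 3 kb was not tested.

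The 4 genes with a SOX2 peak at the start included 3 of the 5 C-type genes, or 60.0% (exact 95% interval 14.7% to 94.7%), beside the 52.0% of genes with a known strand. Pcdhgc3 had the strongest, at 37805851 to 37807250 across its start (37806410), with a total signal of 2698, above 94.3% of all SOX2 peaks. Pcdhac2 had one at 37143651 to 37144750 across its start (37143678), with a total signal of 1525, above 80.6% of SOX2 peaks. By highest signal the Pcdhgc3 peak was above 75.3% of the list and the Pcdhac2 peak, 1100 bases wide, above 6.90%. Total signal is the authors' coverage summed over a peak, on a scale of its own in each list, and is used only to rank peaks within a list. A wide peak can therefore rank high by total signal without a high maximum. At Pcdhgc4 the SOX2 peak at 37814251 to 37814700 ended 379 bases before the start (37815079) and was weak, with a total signal of 821, above 11.8% of the list. By highest signal it was above 46.5%. The fourth gene, Pcdhgb6 (start 37742094), had a peak 307 bases into the gene at 37742401 to 37742900, with a total signal of 762, near the lowest of the list. Among the members that are not C-type it was the single case out of 52. The other C-type genes had no SOX2 peak within 1 kb of the start, and for Pcdhac1 (start 37090136) the nearest was 40036 bases away. The difference between C-type and other members was not tested.

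Pcdhgc4 was the single member with a CHD7 peak at its start. That peak, at 37814301 to 37815850, lay across the start, had a total signal of 574, above 36.4% of CHD7 peaks, and overlapped the weak SOX2 peak there. Its highest signal was 0.729, above 0.403% of the list. None of the 52 members that are not C-type had a CHD7 peak at the start (exact interval up to 6.85%, counting error only).

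**Figure D2:**
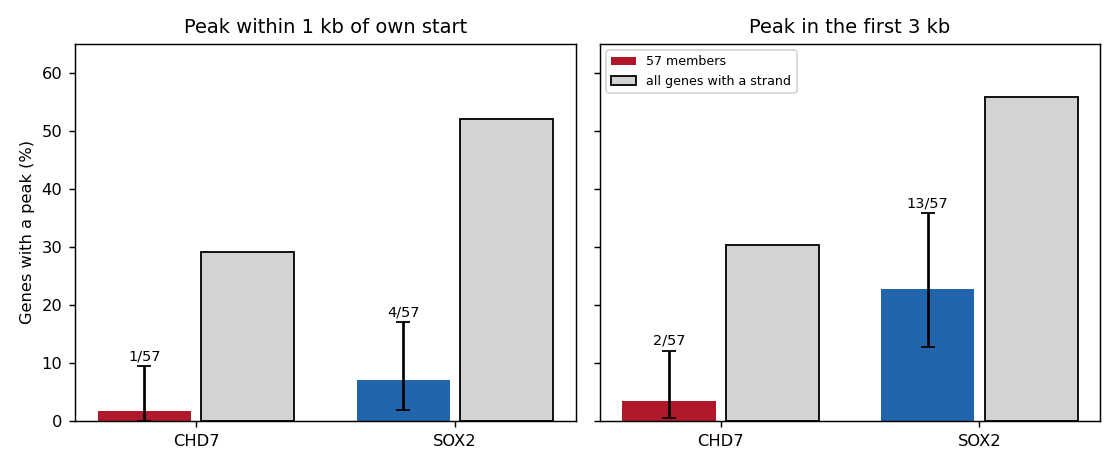
Percent of genes with a CHD7 or SOX2 peak within 1 kb of their own start (left) or in the first 3 kb (right), for the 57 protocadherin members (coloured bars, with exact 95% intervals and counts) and for 17492 protein-coding genes with a known strand (grey bars). The member bars lie below the grey bars in each of the 4 pairs, from 1.75% to 22.8% against 29.2% to 55.9%.

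Variable exons were approximated by the first 3 kb of each gene, because exons were not annotated in the table. A CHD7 peak touched 2 of 57 such segments (3.51%), against 30.3% of genes with a known strand, and a SOX2 peak touched 13 (22.8%), against 55.9%. The CHD7 cases were Pcdhgc4 and Pcdha12, whose peak at 37023101 to 37024000 began 2871 bases from the start and had a total signal of 455, above 7.25% of the list. No segment held peaks of both lists. In the alpha cluster the SOX2 cases were Pcdhac2, Pcdha5 (peak at 36962301, total signal 997) and Pcdha11 (37012251, 821). The beta cases were Pcdhb20 (37505701, 1525), Pcdhb18 (37491201, 1290.2) and Pcdhb8 (37356351, 821). In the gamma cluster they were Pcdhgc3 with 2 peaks, Pcdhgc5 (37822151, 1877), Pcdhgb7 (37754201, 1495), Pcdhga3 (37676901, 938), Pcdhga12 (37767851, 938), and Pcdhgb6 and Pcdhga11 with peaks of 762 each. The gamma cluster thus had 7 of 21 segments with SOX2, the alpha cluster 3 of 14 and the beta cluster 3 of 22. Whole beta genes, 2340 to 5271 bases long, held a CHD7 peak in 0 of 22 (exact interval up to 15.4%, counting error only) and a SOX2 peak in 3 of 22. Of protein-coding genes in the same range of length 26.7% held a CHD7 peak and 55.4% a SOX2 peak.

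Within the clusters themselves, the shares of peaks touching segments and starts are given beside the shares of length, without a test. The segments of 3 kb make up 18.8% of the length from Pcdha1 to the gamma end. Of the CHD7 peaks 15.4% (2 of 13) touched one, and of the SOX2 peaks 26.9% (14 of 52). The windows of 1 kb on each side of the starts make up 12.5% of the length, and 7.69% of the CHD7 peaks and 7.69% of the SOX2 peaks, or 1 of 13 and 4 of 52, touched one. A peak can touch a segment from outside, which raises these shares above those of the bases. With so few peaks the differences from the shares of length can be counting error.

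The members also lay farther from the nearest peak than other genes did. The median distance from a member's start to the nearest CHD7 peak was 49.4 kb (interquartile range 23.4 to 74.6 kb), against 14.9 kb (0.029 to 44.9 kb) over the genes with a known strand. To the nearest SOX2 peak it was 7.20 kb (2.58 to 16.6 kb), against 0.775 kb (0 to 5.90 kb). By cluster, the median for CHD7 was 19.5 kb in alpha, 61.0 kb in beta and 56.9 kb in gamma, and for SOX2 it was 6.02, 8.55 and 4.12 kb. Within 10 kb of the start 8 members (14.0%) had a CHD7 peak and 36 (63.2%) a SOX2 peak, where all genes with a known strand had 43.8% and 83.4%.

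**Figure D3:**
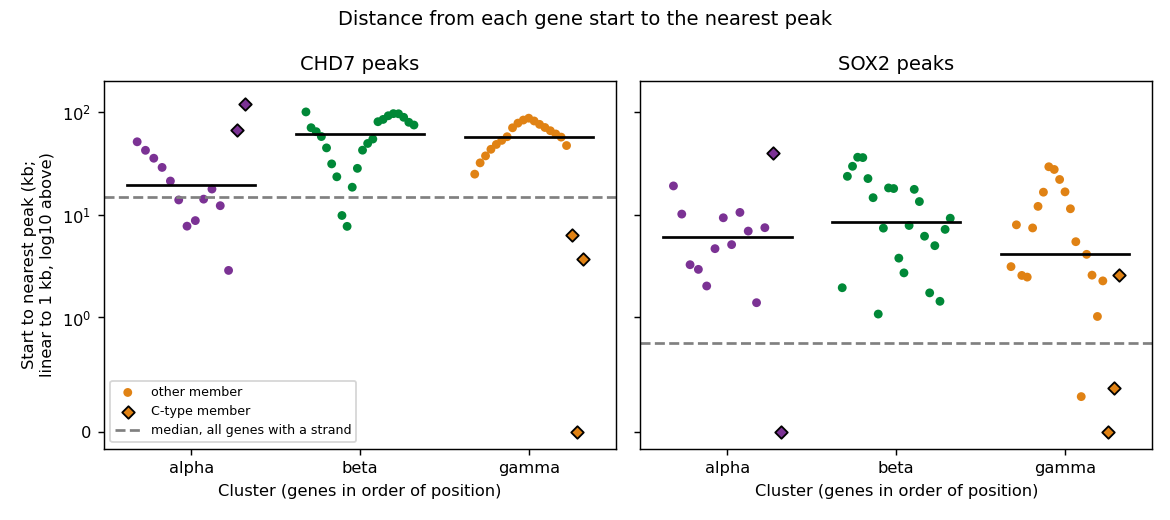
Distance in kb from the start of each of the 57 genes to the nearest CHD7 (left) or SOX2 (right) peak, by cluster and in order of position, on an axis that is linear to 1 kb and logarithmic above; diamonds are C-type genes, black lines cluster medians, and the dashed line the median of all genes with a known strand (14.9 kb for CHD7 and 0.775 kb for SOX2). The medians of the 3 clusters lie above the dashed line in both panels.

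Long stretches with many gene starts had no CHD7 peak. The longest gap between CHD7 peaks, 341 kb from 37024001 to 37365100, held the starts of the 10 genes from Pcdhac1 to Pcdhb8. A gap of 200 kb (37393151 to 37593000) held the 14 beta genes from Pcdhb9 to Pcdhb22. A gap of 176 kb (37636951 to 37812700) held the starts of 19 gamma genes from Pcdhga1 to Pcdhgc3, whose shared end lies beyond it. Together with a gap of 123.5 kb that held the starts of Pcdha1 to Pcdha7, these 4 gaps contained 50 of the 57 starts. The gaps of 341, 200 and 176 kb alone take up most of the 912 kb from Pcdha1 to the gamma end. Most starts would therefore fall in gaps by length alone, and whether they do so more often was not tested. Over the assembled chromosomes the median gap between CHD7 peaks was 43.7 kb, and 3.04%, 9.97%, 12.5% and 21.2% of gaps were at least as long as these, from longest to shortest. For SOX2, 85.2 kb from 37271201 to 37356350 with the 7 starts from Pcdhb2 to Pcdhb8 and 64.6 kb from 37677801 to 37742400 with the 11 starts from Pcdhgb1 to Pcdhgb6 (in order of position) held no peak. The median SOX2 gap was 8.80 kb, and 1.86% and 3.799% of gaps were at least as long as these. For both lists these shares count gaps and not bases, and long gaps hold more of the genome than their number shows. Other long SOX2 gaps held fewer starts: 93.55 kb from 37050101 with 1, 91.45 kb from 36857901 with 3 and 67.8 kb from 37189701 with 0.

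Each of the 4 CHD7 peaks of the beta cluster lay in the 43.2 kb between Pcdhb8 and Pcdhb9, the widest space between beta genes, which is 16.9% of the cluster's length. Of the 11 SOX2 peaks of the beta cluster 6 lay there too. The CHD7 peak with the highest total signal of all 3 clusters was among them, at 37391151 to 37393150, with 1476, above 89.3% of CHD7 peaks. It was 2000 bases wide, and by highest signal it was above 27.0% of the list. Both the SOX2 peak spanning 37391801 to 37392300, with a total signal of 1114, and the one spanning 37392401 to 37393450, with 1378, overlapped it. Nearer to Pcdhb8, the CHD7 peak spanning 37369201 to 37370150 (signal 483) shared bases with the SOX2 peak spanning 37369301 to 37370050 (signal 1056). The CHD7 peaks at 37365101 (806) and 37367201 (701) had no SOX2 partner. The table has no gene in this space other than 3 long read-through genes, Gm37013, Gm38666 and Gm38667, which run from alpha exons to the gamma end.

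The space between the beta and gamma clusters held 3 overlapping pairs. The CHD7 peak at 37593001 to 37593850 (total signal 674) and the SOX2 peak there (1349) had the same borders and the same region of highest signal. At 37630251 to 37631700 a CHD7 peak with a total signal of 1248, above 85.4% of the list, overlapped a SOX2 peak at 37630301 to 37630750 (938), again with the same region of highest signal. The third pair, a CHD7 peak at 37635951 to 37636950 (574) and a SOX2 peak at 37635951 to 37636750 (997), lay within 1 kb of the lower border of Slc25a2 (37637378 to 37638723), a mitochondrial ornithine carrier gene. A further SOX2 peak, at 37637051 to 37637200 (938), was close to the same border. Taf7, a gene of the general transcription factor TFIID beside it (37640491 to 37644204), had no peak at either border.

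In the alpha cluster a group of peaks lay between Pcdha7 and Pcdha8, over the pseudogene Gm36858 (36976294 to 36990270). It contained 2 of the 3 CHD7 peaks of the cluster, at 36981551 (total signal 455) and at 36983151 to 36983700 (483). The second overlapped the strongest SOX2 peak of the cluster, at 36983151 to 36984100, with a total signal of 2463, above 93.1% of SOX2 peaks. SOX2 peaks at 36984351 (1173) and 36986051 (1408) followed. By total signal the CHD7 peaks of the alpha cluster were weak throughout, above 7.25% to 15.6% of the list.

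At the end of the gamma cluster the C-type genes lay among strong and weak peaks of both lists. A CHD7 peak 2450 bases wide, at 37823901 to 37826350, had a total signal of 1366, above 87.5% of its list. By highest signal it was above 37.1%. It overlapped a SOX2 peak at 37823901 to 37825050 with a total signal of 2434, above 93.0% of its list, and both had the same region of highest signal, 5205 bases past the start of Pcdhgc5. A SOX2 peak at 37822151 to 37822900 (1877) lay between that start and this pair, and a CHD7 peak at 37812701 to 37813600 (533, above 28.4% of its list) lay 1479 bases before Pcdhgc4. SOX2 peaks at 37804451 (879.7, above 26.9%) and 37808651 (821, above 11.8%) flanked the start of Pcdhgc3. Exons and introns could not be told apart.

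**Figure D4:**
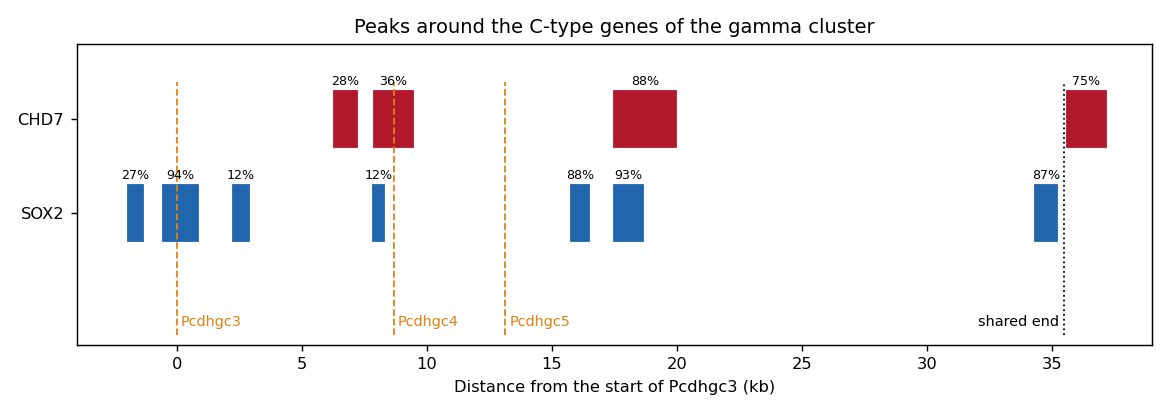
Position and width of CHD7 (top) and SOX2 (bottom) peaks by distance in kb from the start of Pcdhgc3; dashed lines are the starts of the 3 gamma C-type genes, the dotted line is the shared end, and the number over a peak is the percent of its list with a lower total signal. SOX2 peaks lie across or near the starts of Pcdhgc3 and Pcdhgc4, and the overlapping pair past Pcdhgc5 ranks high in both lists by total signal.

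The shared ends of the alpha and gamma clusters differed in their peaks. No CHD7 peak lay within 1 kb of an upper border of the alpha genes, and a SOX2 peak at 37189201 to 37189700 (total signal 821) was within 1 kb of 1 of the 14 borders, that of Pcdha6. At the gamma end a CHD7 peak at 37842001 to 37843550 (943, above 75.4% of the list) began 128 bases beyond the last gamma base. The SOX2 peak there, at 37840701 to 37841600 (1818, above 86.9%), ended 263 bases or more before the ends of the genes, and the 2 did not overlap. The CHD7 peak ended 51 bases before Diaph1 (37843601 to 37935622), an actin-nucleating formin gene, so it cannot be told apart whether it belongs to the gamma end or to Diaph1. Counted gene by gene, these single peaks would give all 21 gamma genes a peak at a border. On that count 21 of 57 members (36.8%) had CHD7 at either border and 25 (43.9%) had SOX2, against 30.8% and 59.7% of all protein-coding genes. All 21 CHD7 members are counted through the peak beside Diaph1, and Pcdhgc4 through its start as well.

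The overlap of CHD7 with SOX2 in the clusters was close to that in the whole list. Of the 13 CHD7 peaks 8 shared at least 1 base with a SOX2 peak, or 61.5% (exact 95% interval 31.6% to 86.1%), against 65.3% of all CHD7 peaks. Of the 52 SOX2 peaks 9 overlapped CHD7, or 17.3% (8.23% to 30.3%), against 14.7% of all SOX2 peaks. In 3 of the 8 overlapping CHD7 peaks the region of highest signal was that of a SOX2 peak, and over all overlapping CHD7 peaks this share was 11.5%. With 8 peaks the difference was not tested and can be counting error.

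By total signal the median cluster peak of each list ranked below the median of the whole list. The median CHD7 peak of the clusters had a total signal of 574, above 36.4% of the list, and the 13 ranged from 455 to 1476. The median SOX2 peak had 938, above 35.8% of the list, with a range of 762 to 2698. Above the median of their list were 6 of 13 CHD7 and 20 of 52 SOX2 peaks. In the strongest 10% by total signal were 0 of 13 and 3 of 52, a difference from 10% that was not tested and can be counting error. The 3 SOX2 peaks were those at the start of Pcdhgc3, past Pcdhgc5 and between Pcdha7 and Pcdha8. By highest signal only the one past Pcdhgc5 (above 92.4%) stayed in the strongest 10% of SOX2 peaks. The peaks at 37439401 (above 90.4%) and 37637051 (above 94.9%) were there instead of the others. The weakest SOX2 peaks of each cluster had a total signal of 762, above 1.93% of the list.

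**Figure D5:**
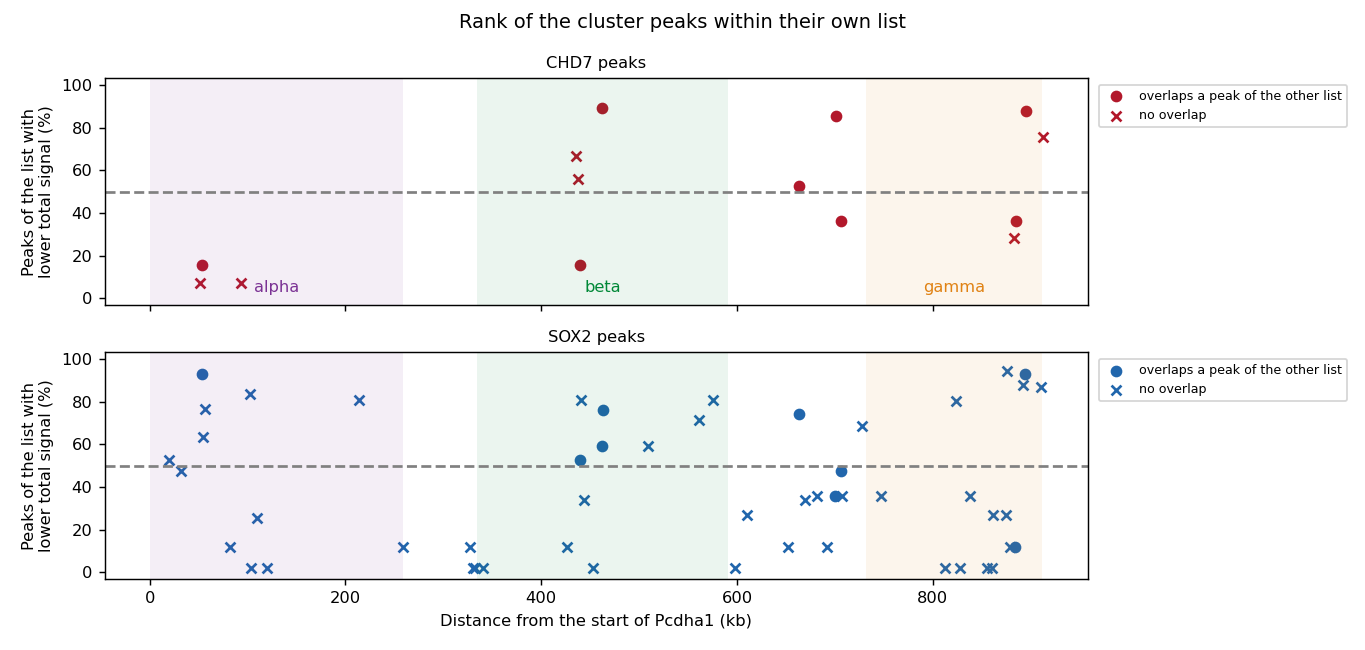
Percent of all peaks of the same list with a lower total signal, for each CHD7 (top) and SOX2 (bottom) peak along the clusters, by distance in kb from the start of Pcdha1; circles are peaks that overlap a peak of the other list, crosses are other peaks, shading marks the clusters and the dashed line is 50%. No CHD7 peak inside the clusters is in the top 10%, and 3 SOX2 peaks are.

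Protocadherin genes outside the clusters were counted at both borders, a measure that differs from the count at starts. Of 13 such genes 4 had a CHD7 peak within 1 kb of either border, 10 had SOX2 and 4 had both, where 30.8%, 59.7% and 28.3% of all protein-coding genes had CHD7, SOX2 and both. Pcdh10, a delta-protocadherin of the nervous system, had summed signals of 2555 for CHD7 and 8650.1 for SOX2. Pcdh17 had 1839.9 and 7946, Pcdh7 2528 and 3665, and Pcdh1, which lies beyond the gamma end on the same chromosome, 615 and 3108. Pcdh9, Pcdh12 and Cdhr1, a photoreceptor cadherin gene once named as a protocadherin, had neither. Pcdh15, which encodes a part of the tip link of hair cells, had 2 SOX2 peaks at its borders, with a summed signal of 1583.4. Both were weak, the stronger above 11.8% of the list. Its long body had 8.37 CHD7 and 38.6 SOX2 peaks per Mb, where all assembled chromosomes had 12.4 and 58.3.

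Among 16 genes whose products act on chromatin loops or silencing, several of them known regulators of the clusters, 8 had a CHD7 peak at a border, 10 had SOX2 and 7 had both, beside the same shares of all protein-coding genes (30.8%, 59.7% and 28.3%). Those with both were Ctcf (summed signal 560 for CHD7 and 2932 for SOX2), the cohesin subunit genes Smc1a (729 and 3167) and Smc3 (934 and 3050), and the cohesin release factor gene Wapl (1098 and 2229). They also included Smchd1, whose product silences clustered protocadherins (624 and 1730), Rest, a repressor of neuronal genes (474 and 1642), and the zinc finger gene Zfp143 (1548 and 7565). The cohesin genes Rad21 and Stag1, the cohesin loader gene Nipbl, the DNA methyltransferase gene Dnmt3a and Wiz had neither.

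Genes beside the clusters carried peaks at about the shares of all protein-coding genes. Apart from the 3 read-through genes, 15 protein-coding genes lay within 200 kb of the outer borders or between the clusters, and 5 had a CHD7 peak at a border, 9 a SOX2 peak and 4 both, beside 30.8%, 59.7% and 28.3% of all protein-coding genes. With the read-through genes, which end at the gamma end, the counts were 8, 12 and 7 of 18. The 4 of 15 genes with both were Diaph1 (summed signal 1831 for CHD7 and 3665 for SOX2), Slc25a2 (574 and 1935), the histone deacetylase gene Hdac3 (569 and 1906) and Rell2 (569 and 1173), and the CHD7 peak of Hdac3 is that of Rell2. Adjoining genes also shared SOX2 peaks, as Hars and Hars2 did (2698 each) and Ik and Ndufa2 (1349 each), so the 9 genes do not stand for 9 peaks. Arap3, Dnd1, Taf7, Wdr55 and Zmat2 had neither.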

How the data were processed

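The authors deposited 1 peak list per library for CHD7 and SOX2. Per the submitters' processing notes, Bowtie2, deepTools and SEACR were used with the mouse build mm10. The sources used here do not state versions, thresholds, use of the control, or what was done with duplicates and with reads that match several similar exons. The deposited coverage signal of a peak is its total and its maximum, on an unstated scale, so signal only ranks peaks within a list. Totals were rounded to 1 decimal before ranking. Coordinates count from 1.

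Genes came from the RefSeq table of GRCm38.p6. Strands came from a RefSeq promoter table, which gave 17492 of 21887 protein-coding genes and none on chromosome 18. No exon annotation or sequence was used, so 3 kb from the start stands for the variable exon. A peak counted at a border within 1 kb, and as shared with 1 base in common. Intervals are exact Clopper-Pearson at 95%. The counting was tested on simulated peaks: 10 of 10 planted starts were recovered, and 2000 random queries gave 0 mismatches. Members and lists were chosen with earlier results of these data known. Named were the 12 members with the strongest signal in the first 3 kb, the C-type genes, overlapping peaks, peaks at shared ends and extremes per cluster; Pcdhb8, Pcdhgb6 and Pcdhga11 were named beyond the rule, after their values were seen. Peak spans stand for chromosome lengths. Alternatives were other windows, stricter peak sets, other overlaps and wider borders. Versions were matplotlib 3.10.9, scipy 1.17.1, pandas 2.3.3, numpy 2.4.6 and Python 3.11.15.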

Additional observations from a re-analysis of the deposited data

How the results depend on the processing

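With the stronger 50% of each list by total signal, 6 CHD7 and 22 SOX2 peaks were left along the clusters (6.58 and 24.1 per Mb, against 6.21 and 30.5 over all assembled chromosomes). Member starts with a peak then numbered 0 and 2, segments of 3 kb 0 and 7, shared-end peaks of SOX2 1, CHD7 genes among the regulators 4 and among the neighbours 1 of 15 (Diaph1) or 4 of 18 with the read-through genes, and genes of the whole table with CHD7 at a border 4239. With the 10000 strongest peaks of each list, 3 CHD7 peaks and 1 SOX2 peak were left (3.29 and 1.10 per Mb, against 3.73 and 3.72 over all assembled chromosomes), none of the 3 CHD7 peaks overlapped SOX2 (0%), and starts numbered 0 and 1, segments 0 and 1, and shared-end peaks of SOX2 0. Border counts were then 2913 and 3701 genes of the whole table, 3 and 4 regulators, 1 and 3 of 15 neighbours (4 and 3 of 18), and 3 lone protocadherin genes with SOX2. Stricter sets count fewer peaks everywhere, and for SOX2 the clusters fell further than the genome. The cause was not tested. Shares of all genes with a peak at the start or in the first 3 kb were not recomputed for these sets. The member counts therefore cannot show whether members lost more peaks than other genes did. A window of 2 kb raised the SOX2 starts to 10 of 57 (17.5%, against 59.2% of genes with a known strand). Segments of 2 kb gave 1 for CHD7 and 7 for SOX2, with no share of all genes computed for that length. When the regions of highest signal had to overlap, 30.8% of CHD7 peaks in the clusters were shared. The share over all CHD7 peaks was not recomputed for this setting or for the stricter sets. The 30.8% and the 0% above therefore cannot be set against the genome. The 10000 strongest peaks are also a smaller part of the 155548 SOX2 peaks than of the 33035 CHD7 peaks. The other 42 of 78 recomputed values stayed within 1.5 times the reported count or inside the interval of the reported share. The alternatives for regulators and neighbours were chosen after seeing the data. No paired analysis was possible because each antibody has 1 library, and for the same reason no replicate could be left out. Counts near 0, such as those at member starts, are too small for any order between the clusters, and read depth is unknown.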

Other observations

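A pair of peaks lay at a gene of another kind before the clusters. Vaultrc5 (36801763 to 36802107), which encodes a vault RNA, a short RNA made by RNA polymerase III, ends 128 kb before Pcdha1. A CHD7 peak at 36801451 to 36802100 (total signal 624, above 45.6% of the list) and a SOX2 peak at 36801501 to 36802050 (1349, above 74.3%) covered nearly the whole gene. It was singled out after its values were seen.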
